A study of Gallus gallus with 6 samples.

Results

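Of the 1995 long non-coding RNAs (lncRNAs) in the expression tables of chicken leg muscle, 919 (46.1%) overlapped the locus of an Ensembl transcript or lay at most 5000 bp from one. They were chosen by position alone: the distance was taken between the locus given for the lncRNA and the nearest locus of an Ensembl transcript on the same chromosome or scaffold, and it was 0 bp for 457 lncRNAs and 1 to 5000 bp for 462. A further 592 lncRNAs lay over 5 kb and up to 50 kb away, 401 lay over 50 kb away, and 83 lay on scaffolds without an Ensembl transcript. The study followed leg skeletal muscle of Xinghua chickens, a Chinese meat-type breed, at embryonic days 11 (E11) and 16 (E16) and at 1 day past hatching (D1), and asked which lncRNAs and genes change as the muscle forms. Each stage had 2 libraries, labelled as female and with no treatment named, of total RNA freed of ribosomal RNA. The labels do not say whether a library came from 1 bird or several, and whole leg muscle holds other cells beside the muscle fibers. A difference in the number of cells of a type and a difference in RNA per cell cannot be told apart in such samples.

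LncRNAs are transcripts with no long reading frame that are mostly made by RNA polymerase II, spliced and polyadenylated as mRNAs are. Those that lie within or next to a gene can be made from the opposite strand of it, from its promoter in the other direction, from an intron, or from an enhancer nearby, and some of them act in cis, on the gene beside them, by recruiting chromatin proteins or through the act of transcription itself. Others are hosts of microRNAs or act on distant genes, and for most no function is known. During the stages sampled here, the leg of the chick passes from dividing myoblasts and new myotubes to growing fibers, and at hatching to a muscle that has to carry the bird.

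The level of a transcript is given as FPKM, a count of fragments scaled to the length of the transcript and to the mapped total of the library. The tables hold 1 FPKM per transcript and stage with both libraries merged, so the spread between libraries is unknown, no test between stages was possible, and the read depth behind a value is unknown. Levels at the 3 stages stand on the scale of the E11 vs. E16 table, since each table was scaled by itself. For D1 this took a constant factor, while ratios, calls and the FPKM minimum were taken within a table. Ratios are log2 of the later over the earlier value after 0.1 was added to each, which understates the ratio of low transcripts. A transcript was called higher or lower where it reached 1 FPKM at either of the 2 stages and differed at least 2-fold on that scale, and such a call describes these merged libraries only. The methods name a kit that removes ribosomal RNA but none that keeps the strand, and state no use of strand in the counting. Reads of an lncRNA and of a gene on the other strand of the same place thus cannot be told apart here. The paper lists a direction, sense or antisense, for its differentially expressed lncRNA transcripts, which was not used here.

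The 919 lncRNAs lay in 654 loci, of which 515 held a single one of them and 139 held from 2 to 13. A locus in these tables spans all transcripts that were handled together, and 456 of the 457 overlapping lncRNAs carried exactly the same locus as an Ensembl transcript. An overlap is thus an overlap of loci, with a median length of 48.9 kb, and not of the exons or ends of the transcripts, which the tables do not give. The loci of the lncRNAs beside a gene had a median length of 6.51 kb and a median distance of 1457 bp, and 169 of them lay within 1000 bp. The nearest transcript had a gene symbol for all but 143 lncRNAs. Of the 544 different symbols, 517 were found in RefSeq and 512 of these were protein-coding. For 209 lncRNAs several Ensembl transcripts lay at the same distance, and the most abundant one was taken as the partner. The lncRNAs with the largest distance were lnc00066467, lnc00066468 and lnc00062220, at 5000 bp from DAPP1 and with 0, 3.23 and 1.27 FPKM at E16. The first ones left out lay at 5035 bp from JAKMIP2 (lnc00023402, 0.165 FPKM at E16) and at 5041 bp from CLASP2 (lnc00033915, 0.869 FPKM).

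The share of lncRNAs that lay this close to a gene differed between chromosomes. Chromosome 1 held the most of them, 134 of its 311 lncRNAs (43.1%), and chromosome 2 held 79 of 207 (38.2%). On chromosomes 5, 6, 10 and 14 the share was higher, at 57.9%, 63.5%, 60.0% and 61.5%, and on 7, 11 and Z it was lower, at 37.4%, 29.4% and 34.8%. Some chromosomes with few lncRNAs had still higher shares, such as 78.3% of 23 on chromosome 19 and 84.2% of 19 on chromosome 15. On chromosome 26 it was 90.9% of 11 and on chromosome 28 100% of 10. Both lncRNAs of the mitochondrial genome lay this close to a gene.

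LncRNAs overlapping or beside genes were low, though not as low as those farther away. An FPKM of 1 or more was reached by 322 of them (35.0%) at E11, by 384 (41.8%) at E16 and by 341 (37.1%) at D1. Among lncRNAs 5 to 50 kb from a gene these shares were 26.5%, 31.6% and 25%, and beyond 50 kb they were 20.7%, 24.2% and 16.7%. Among lncRNAs with a distance, the share was thus highest near genes and lowest beyond 50 kb at each stage. The 83 lncRNAs on scaffolds without an Ensembl transcript, for which no distance exists, had higher shares of 69.9%, 78.3% and 69.9%. Within 5000 bp it was 33.7%, 42.7% and 33.5% for overlapping lncRNAs and 36.4%, 40.9% and 40.7% for those beside a gene. Of the Ensembl transcripts 66.6%, 64.6% and 62.8% reached that level. The median of the values above 0 was 0.745, 0.897 and 0.727 FPKM for the lncRNAs near genes and 6.39, 6.64 and 6.59 FPKM for the Ensembl transcripts. Few were abundant: 8 stood at 10 FPKM or more at E11 and 16 each at E16 and D1, while 53, 49 and 71 were listed at 0 at the 3 stages and 1 was listed at 0 at all of them. The last was lnc00014067 of a cluster beside DIS3.

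Most of these lncRNAs were much lower than the gene next to them. Where either partner reached 1 FPKM, the lncRNA stood above its gene in 64 of 818 pairs (7.82%) at E11, in 71 of 798 (8.90%) at E16 and in 65 of 781 (8.32%) at D1. The median ratio of gene to lncRNA was 12, 12.3 and 15.1. The level of an lncRNA followed that of its gene weakly across pairs, with Spearman's rho of 0.05 over 749 pairs at E11, 0.14 over 773 at E16 and 0.11 over 724 at D1. These pairs share their libraries, and pairs of 1 locus share their gene.

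E16 was the stage at which the largest number of them peaked. Of the 594 lncRNAs near genes with 1 FPKM or more at their highest stage, 240 (40.4%) were highest at E16, 174 (29.3%) at E11 and 180 (30.3%) at D1. Ensembl transcripts were distributed differently, with 20.1% of 12731 highest at E16, 39.8% at E11 and 40.1% at D1. LncRNAs 5 to 50 kb from a gene peaked at E16 in 36.6% of 314 and those beyond 50 kb in 40.6% of 170, so a frequent peak at E16 was not particular to those near genes. It was not seen on scaffolds without an Ensembl transcript, where 23.7% of 76 lncRNAs were highest at E16, 32.9% at E11 and 43.4% at D1. The part of the lower levels of lncRNAs in this pattern was not tested.

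**Figure D1:**
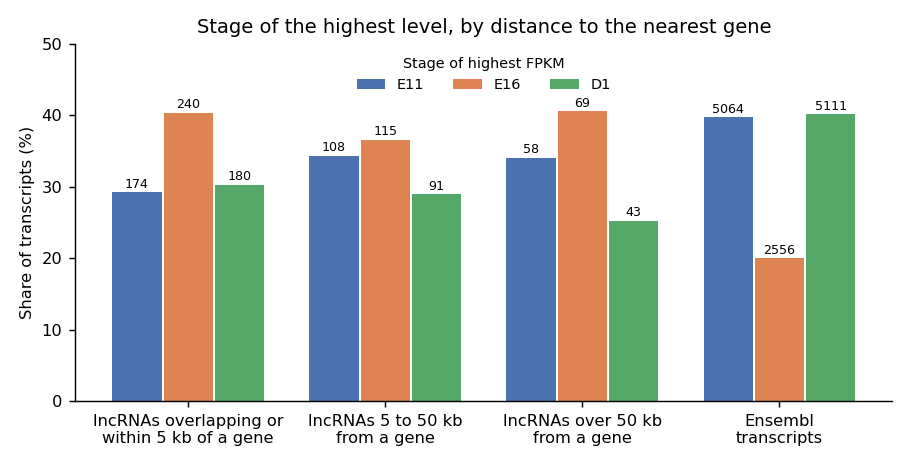
Share of transcripts (in percent) with their highest FPKM at E11, E16 or D1, among transcripts with 1 FPKM or more at that stage, for lncRNAs by distance to the nearest gene and for Ensembl transcripts; numbers above the bars count transcripts. The bar for E16 is the highest in each group of lncRNAs drawn, 240 of 594 near genes, and the lowest among the Ensembl transcripts. LncRNAs on scaffolds without an Ensembl transcript are not drawn.

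From E11 to E16, more lncRNAs near genes were higher than lower. Of the 504 that passed the FPKM minimum, 165 were at least 2-fold higher at E16 and 92 at least 2-fold lower, 32.7% and 18.3% of them, against 15.1% and 12.8% of all transcripts in the table. Together these calls took in 51% of the lncRNAs near genes, against 27.9% of all transcripts and 25.7% of the Ensembl transcripts. The median log2 ratio was 0.37, while that of the Ensembl transcripts was -0.01. The other lncRNAs were called at 58.9% of 479, with 35.9% higher and 23% lower and a median log2 ratio of 0.33. More higher than lower calls were thus not particular to lncRNAs near genes. Calls were also counted by the level of the higher stage. At 1 to 2 FPKM, 50% of 300 lncRNAs near genes and 39.1% of 1107 Ensembl transcripts were called. At 2 to 5 FPKM it was 53.6% of 153 and 31.2% of 2095, and at 5 FPKM or more 49% of 51 and 22.9% of 9298. The last class has no upper limit and Ensembl transcripts reach far higher levels, so the 2 sets are not matched in level there. The part of level in these shares was not tested. Of those lncRNAs of 1 to 2 FPKM, 87 were higher and 63 lower, while of the Ensembl transcripts at that level 158 were higher and 275 lower. A value of 0 stood at E11 for 20 of the higher lncRNAs and at E16 for 17 of the lower ones, and no fold is given against it.

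Between E11 and D1, of 411 lncRNAs near genes past the minimum 152 (37%) were at least 2-fold higher at D1 and 106 (25.8%) lower, against 22.1% and 21.1% of all transcripts. Both directions together gave 62.8%, against 69.4% for the other lncRNAs, 43.2% for all transcripts and 41.7% for the Ensembl transcripts. The median log2 ratio of the lncRNAs near genes, 0.25, turned to -0.15 when the minimum was lowered to 0.5 FPKM. No direction can thus be given for the group as a whole over this span. Between E16 and D1, 67 of 356 (18.8%) were higher and 86 (24.2%) lower, against 11.6% and 11.4% of all transcripts. Together this was 43%, against 49.7% of the other lncRNAs, 23% of all transcripts and 21.6% of the Ensembl transcripts. The median log2 ratio of the lncRNAs near genes was -0.25. The surplus of lower calls was not kept at a minimum of 2 FPKM, with 33 higher and 33 lower, or with a pseudocount of 1, with 36 and 35, and where the higher stage stood at 5 FPKM or more 13 were higher and 4 lower. The overlapping lncRNAs were called more often than those beside a gene in each table: 53.9% and 48% for E11 vs. E16, 69.7% and 56.5% for E11 vs. D1, and 51.7% and 34.8% for E16 vs. D1. The 3 tables share their libraries, so these differences are not independent of each other. The minimum was applied on the scale of each table, which makes it stricter for E11 vs. D1 and strictest for E16 vs. D1. Counts and shares are thus not at like thresholds across the comparisons.

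The most abundant lncRNA near a gene at E16 was lnc00008058, which shared the locus chr1:179738880-179741023 of galGal4 with the Ensembl transcript ENSGALT00000027729, for which the tables give no symbol. It stood at 0.188 FPKM at E11, 258 at E16 and 51.8 at D1, with log2 ratios of 9.81 for E11 vs. E16 and -2.31 for E16 vs. D1. The Ensembl transcript of that short locus had 0.5, 315 and 84.6 FPKM. Both were near 0 at E11, at their highest at E16 and in between at D1. The lncRNA with the highest level at E11, and again at D1, was lnc00089027 on the unplaced scaffold AADN03010811.1, 1335 bp from PPP1R27, which encodes a regulatory subunit of protein phosphatase 1. It stood at 150, 129 and 83.1 FPKM, while PPP1R27 had 0.111, 32.1 and 63.3 FPKM. The lncRNA was thus present at E11, when its gene was close to 0, and stayed above it throughout.

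Further abundant lncRNAs lay beside genes of the fiber and the mitochondrion. At 47.7, 34.7 and 27.9 FPKM, lnc00082973 lay 1187 bp from NEXN, which encodes nexilin, an actin-binding protein of the Z disc, and NEXN itself had 126, 802 and 1078 FPKM. On the mitochondrial genome, lnc00096429 (12.7, 21.0 and 57.4 FPKM) overlapped COX3, a subunit of cytochrome c oxidase, with 6352, 14933 and 42013 FPKM. There too, lnc00096430 (15.7, 32.4 and 71.0 FPKM) overlapped the cytochrome b gene cytb, with 602, 1331 and 4430 FPKM. Both mitochondrial lncRNAs were higher at each later stage, as were the genes at their loci. The mitochondrial genome is transcribed on both strands into long precursors, and reads of the lncRNA and of the precursor cannot be told apart here. At chr15:10803213-10804458, lnc00028136 stood at 6.68, 26.4 and 54.7 FPKM and lay 61 bp from a transcript without a symbol at 1.10, 1.32 and 1.19 FPKM. It was at least 2-fold higher at each step, while the transcript beside it stayed within 2-fold.

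From E16 to D1, the largest increases among lncRNAs above 0 at both stages stood beside SLC25A4, the gene of the ADP/ATP carrier that exchanges ADP for ATP across the inner mitochondrial membrane. The locus chr4:38810681-38817059, 823 bp from it, held 4 lncRNAs. The level of lnc00061312 was 0.31 FPKM at E11, 0.392 at E16 and 34.7 at D1, that of lnc00061313 0.514, 0.614 and 20.3, and that of lnc00061311 0.242, 0.0606 and 2.05. The fourth, lnc00061310, had 0.15 and 0.0791 FPKM and was listed at 0 at D1. SLC25A4 stood at 36.6, 303 and 8376 FPKM. The 3 lncRNAs were thus level or lower from E11 to E16, over which their gene was 3.04 higher on the log2 scale, and were 3.45 to 6.03 higher from E16 to D1, over which the gene was 4.79 higher.

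Other lncRNAs beside genes of mitochondria were higher at D1 as well. Within the locus of COX5A, a nuclear-encoded subunit of cytochrome c oxidase, lnc00016860 had 0.126, 3.52 and 11.0 FPKM and its gene 31.9, 59.9 and 207 FPKM. At 3872 bp from NDUFA8, a subunit of complex I, lnc00029488 had 0.293, 1.39 and 5.04 FPKM and the gene 24.1, 53.0 and 162. At 1052 bp from VDAC1, the channel of the outer mitochondrial membrane, lnc00024232 had 0.0301, 2.92 and 2.91 FPKM and the gene 22.7, 117 and 382. In these 3 pairs lncRNA and gene were both at least 2-fold higher from E11 to D1. From E16 to D1 the lncRNA beside VDAC1 was level, while the gene was higher.

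In the group of 70 measured genes of energy metabolism, 6 genes had 11 lncRNAs at or beside them. Of these lncRNAs 8 passed the minimum from E11 to D1, of which 5 were at least 2-fold higher and none lower, while of 69 genes of the group past it 55 were higher and 4 lower. Over the step from E11 to E16 4 of 6 lncRNAs were higher and none lower, and from E16 to D1 5 of 9 were higher and 2 lower. Of the 4 lncRNAs beside SLC25A4, 3 are among those higher from E11 to D1 and from E16 to D1. Calls in both directions took in 62.8% of all lncRNAs near genes from E11 to D1, and 43.2% of all transcripts. From E11 to E16 these shares were 51% and 27.9%, and from E16 to D1 43% and 23%. The 2 lower ones from E16 to D1 were lnc00085486 and lnc00085489 beside PRKAA2, a catalytic subunit of the energy sensor AMPK. With lnc00085485 they formed a locus 449 bp from that gene, and they stood at 1.23, 3.42 and 1.02 FPKM and at 0.793, 2.61 and 1.13 FPKM, both highest at E16. PRKAA2 itself had 3.35, 26.5 and 38.3 FPKM. At ACSL4, which activates long-chain fatty acids, the overlapping lnc00064203 stayed between 1.35 and 1.69 FPKM, while the gene had 11.5, 7.81 and 30.8 FPKM.

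Around IL15, a cytokine that muscle also expresses, 5 lncRNAs were higher at each stage than at the one before. Of these, lnc00064868 lay 160 bp away, at chr4:29406327-29417038, with 1.09, 4.95 and 12.7 FPKM. The other 4 shared the locus of the gene, chr4:29417199-29501587, and stood between 0.225 and 0.672 FPKM at E11 and between 4.70 FPKM (lnc00064874) and 7.82 FPKM (lnc00064881) at D1. IL15 had 1.03, 6.54 and 51.6 FPKM. All 5 lncRNAs were 1.97 to 2.42 higher from E11 to E16 and 1.12 to 1.45 higher from E16 to D1 on the log2 scale, so they were called in all 3 tables with the gene, which was 2.55 and then 2.96 higher. Within the neighbouring locus chr4:29382665-29402914, shared with ZNF330, lnc00064866 (0.358, 1.45 and 3.94 FPKM) and lnc00064865 (0.374, 0.928 and 2.34 FPKM) followed the same order of stages, while ZNF330 had 22.4, 21.0 and 33.7 FPKM. This neighbouring locus was chosen after its values were seen.

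The largest cluster lay beside a gene that was level. The locus chr1:155285440-155291502 held 13 lncRNAs at 1991 bp from DIS3, the catalytic ribonuclease of the RNA exosome. Summed over the 13, their level was 0.208 FPKM at E11, 19.2 at E16 and 18.1 at D1, while DIS3 had 16.9, 14.8 and 16.9 FPKM. At E11, 8 of the 13 were listed at 0 and the highest, lnc00014059, stood at 0.116 FPKM. Of the cluster, 7 passed the minimum from E11 to E16 and all 7 were at least 2-fold higher, and from E11 to D1 9 of 9 were. The single transcripts of the cluster then went different ways to D1, where lnc00014059 stood at 1.23 FPKM after 4.80 at E16 and lnc00014063 at 3.52 after 0.953. How reads were shared among transcripts of 1 locus is an estimate, on which the sum depends less than the single values. The cluster as a whole was chosen after its values were seen.

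Some lncRNAs lay next to rows of microRNAs, short RNAs that silence mRNAs and are cut from longer transcripts. Among the 18 lncRNAs whose nearest Ensembl row was a small RNA or uc_338, 11 were nearest to 6 different microRNA rows. The microRNAs are listed at 0 at all stages in these libraries of long RNA, so no ratio with the partner could be formed. The locus chr1:71169213-71369588, at 1561 bp from gga-let-7a-3, held 6 of the 11. Their summed level was 25, 52.1 and 34.4 FPKM. The members lnc00003077 (6.74, 16.1 and 9.58 FPKM), lnc00003074 (7.98, 15.2 and 9.26 FPKM) and lnc00003045 (7.52, 13.8 and 10 FPKM) made up most of it, and 5 of the 6 were highest at E16, the exception being lnc00003083 with 0.21, 0.521 and 0.972 FPKM. At 417 bp from gga-mir-1605, lnc00066683 stood at 1.77, 6.98 and 2.91 FPKM, at 1981 bp from gga-mir-34a lnc00045132 at 1.46, 2.45 and 1.41, and at 750 bp from gga-mir-181b-2 lnc00029543 at 0.954, 1.51 and 1.24. These were highest at E16 as well, whereas lnc00041360 beside gga-mir-6707 was highest at D1 (1.09 FPKM) and lnc00080175 beside gga-mir-1812 at E11 (1.09 FPKM). The lncRNAs beside microRNAs were picked with their values known.

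A locus on chromosome 16, which carries the major histocompatibility complex of the chicken, went down as a block. The 10 lncRNAs of chr16:236080-346680 shared their locus with B-G genes, which encode surface proteins of the immunoglobulin family. Their summed level was 47.3 FPKM at E11, 27 at E16 and 9.01 at D1. From E11 to D1 all 8 that passed the minimum were at least 2-fold lower, among them lnc00028274 (1.93, 1.23 and 0.128 FPKM), lnc00028270 (4.93, 3.13 and 0.624 FPKM), lnc00028272 (9.59, 5.76 and 1.62 FPKM) and lnc00028273 (12, 5.48 and 2.19 FPKM). The B-G transcript taken as their partner had 3.02, 13.4 and 21.3 FPKM and so ran the other way. B-G genes are near-identical copies, so reads may have been split between them and these values are uncertain. The locus was chosen as a whole after its values were seen.

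Several single lncRNAs ran against the muscle gene they overlapped or lay beside. At PDLIM3, which encodes a PDZ and LIM domain protein of the Z disc, lnc00062238 had 6.64, 2.31 and 0.568 FPKM and the gene 34.5, 357 and 1533 FPKM. It was called in the opposite direction to its gene in all 3 tables. At MLIP, the gene of a muscle protein that binds lamin, lnc00054306 had 3.55 FPKM at E11 and was listed at 0 at E16 and D1, while MLIP had 0.361, 15.9 and 25.1 FPKM. At IRK1, an inward rectifier potassium channel, lnc00030603 stood at 1.12 and 0.0899 FPKM and was listed at 0 at D1, with the gene at 8.64, 51.3 and 134 FPKM. The other lncRNAs of that locus, lnc00030627 and lnc00030604, were listed at 0 at E11 and reached 1.03 and 0.887 FPKM at D1. On the scale of each table they passed the minimum in no comparison. LncRNAs of 1 locus thus ran both with the gene and against it, though those that ran with it were too low to be called. Beside CAP2, which binds actin and turns over its filaments, lnc00034658 at 2773 bp had 1.38, 0.285 and 0.0247 FPKM, against 28.2, 106 and 101 FPKM of the gene. At DUPD1, of the dual specificity phosphatases, lnc00077056 had 1.05, 0.212 and 0.313 FPKM, and the gene 2.38, 13.3 and 44.2 FPKM.

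Over all opposite pairs with a gene symbol and both partners past 2-fold, the lncRNA was lower and its gene higher in 7 of 9 from E11 to E16, in 28 of 36 from E11 to D1, of which 8 were at the B-G locus, and in 2 of 4 from E16 to D1.

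In the others the lncRNA was higher where its gene was lower. At ZNF185, lnc00059915 had 0.383, 2.07 and 0.36 FPKM, against 1.07, 0.148 and 0.542 FPKM. At HNMT, which inactivates histamine, lnc00081698 was listed at 0 at E11 and E16 and stood at 3.87 FPKM at D1, with the gene at 2.84, 84.4 and 26.9 FPKM. That pair was opposite from E16 to D1, whereas from E11 to D1 both partners were at least 2-fold higher. At 333 bp from TGIF2, a homeobox repressor, lnc00042705 had 0.595, 0.623 and 1.52 FPKM and the gene 4.11, 2.01 and 0.856 FPKM. Beside NR4A2, an orphan nuclear receptor, the order from E16 to D1 was again that of PDLIM3: lnc00080005, 1417 bp away, had 0.341, 1.86 and 0.38 FPKM, and the gene 0.831, 0.692 and 3.09 FPKM. At TGFB2, a ligand of the TGF-beta family, lnc00051346 had 0.378, 1.71 and 8.56 FPKM, while the gene, at 76.4, 59.7 and 39.7 FPKM, stayed within 2-fold and so was not among these pairs.

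Pairs that were higher together included receptors and phosphatase subunits. At PPP1R36, a regulatory subunit of protein phosphatase 1, lnc00070620 was listed at 0 at E11 and had 1.75 and 10.5 FPKM at E16 and D1, with the gene at 0.234, 3.14 and 14.3 FPKM. At 2899 bp from P2RY2, a receptor for extracellular ATP and UTP, lnc00015120 was listed at 0 at E11 and had 0.31 and 6.58 FPKM later, with the gene at 0.342, 1.39 and 14.2 FPKM. At 763 bp from TMEM117, lnc00001092 had 0.0289, 1.13 and 1.13 FPKM and the gene 1.11, 10.3 and 17.5 FPKM. Beside MAS1, a G protein-coupled receptor, lnc00052651 and its gene were both listed at 0 at E11 and had 1.12 and 1.34 FPKM at E16. At the locus of HOMER1, a scaffold of calcium signalling, lnc00099301 had 0.0722, 7.62 and 7.39 FPKM and the gene 11.3, 39.8 and 34.0 FPKM. Lower together from E16 to D1 were the lncRNAs 1524 bp from KCNJ6, another inward rectifier, of which lnc00005348 had 0.0513, 2.83 and 0.395 FPKM and lnc00005342 0.114, 1.79 and 0.153 FPKM, beside 0.67, 3.06 and 0.295 FPKM of the gene. That gene and both lncRNAs peaked at E16.

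Pairs that were lower together from E11 to E16 included the transcription factor genes SIM1 and Emx1. At SIM1, a bHLH-PAS factor, lnc00058133 had 1.01 FPKM at E11 and was listed at 0 at both later stages, and the gene had 8.97, 0.177 and 0.142 FPKM. At 1109 bp from the homeobox gene Emx1, lnc00063361 had 1.05 FPKM at E11 and was listed at 0 later, and the gene had 2.42, 0.024 and 0.0246 FPKM. On an unplaced scaffold, lnc00095009 at 636 bp from TUBB, a beta-tubulin, had 6.28 and 0.247 FPKM and was listed at 0 at D1, with the gene at 160, 42.4 and 23.3 FPKM. At CNTN3, an adhesion molecule of neurons, lnc00021241 had 1.63, 0.332 and 4.2e-06 FPKM and the gene 2.83, 0.526 and 0.136 FPKM. In all of these, both partners had their highest value at E11.

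In some loci the levels of lncRNAs traded places between stages while the sum or the gene changed less. At ARPC1A, of the Arp2/3 complex that branches actin filaments, lnc00025677 stood at 4.47, 0.0134 and 0.0346 FPKM and lnc00025678 at 1.31, 0 and 0.768, whereas lnc00025679 stood at 0, 12.7 and 1.59 and lnc00025680 at 0, 3.40 and 3.48. ARPC1A had 66.4, 51.6 and 49.9 FPKM. At 2107 bp from Six2, a homeobox gene, lnc00051742 had 2.24, 0.000957 and 1.26 FPKM and lnc00051743 1.82, 1.40 and 0.000217 FPKM. The other 3 lncRNAs of that locus had 0.219 FPKM or more at every stage, and the sum over all 5 was 12.7, 8.62 and 5.48 FPKM. Values this close to 0 within a locus of several transcripts depend on how reads were assigned among them, which the tables do not show. At SMC3, a ring protein of cohesin, 4 lncRNAs ran together instead, led by lnc00077727 with 0.0787, 12.4 and 3.32 FPKM, while SMC3 had 77.1, 67.5 and 48.5 FPKM. A single lncRNA at AHCY, the hydrolase of S-adenosylhomocysteine, was chosen after its values were seen: lnc00042762 was listed at 0 at E11 and D1 and at 30.0 FPKM at E16, with the gene at 171, 188 and 65.6 FPKM.

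Over all loci with several lncRNAs past the minimum, the lncRNAs of a locus mostly went the same way. Of 57 such loci from E11 to E16, 28 had all of these lncRNAs higher at E16, 10 had all of them lower and 19 were mixed. From E11 to D1 the counts were 20, 16 and 9 of 45, and from E16 to D1 14, 18 and 6 of 38. Loci with lncRNAs at least 2-fold higher and others at least 2-fold lower numbered 5, 4 and 1. One locus without a symbol, chr5:14208304-14367336, held 5 lncRNAs with a summed level of 7.63, 13.5 and 0.41 FPKM, among them the 3 largest decreases from E16 to D1 of lncRNAs above 0 at both stages. These were lnc00068503 (1.85, 3.13 and 0.0419 FPKM), lnc00068499 (1.71, 3.18 and 0.0464 FPKM) and lnc00068502 (2.63, 3.84 and 0.142 FPKM), and the Ensembl transcript at that locus had 0.454, 0.255 and 0.0347 FPKM. Next in that order were lnc00034107 at PPP1R17 (1.15, 5.78 and 0.332 FPKM) and lnc00013371 at SH3RF3 (0.418, 1.79 and 0.0177 FPKM).

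Further lncRNAs had ratios among the largest. Highest at D1 were lnc00026299 at GSG1L, an auxiliary protein of glutamate receptors in rodents, with 1.13e-06, 0 and 5.05 FPKM, and lnc00008648 on chromosome 1, with 0, 0.449 and 10.8 FPKM. Highest at E11 were lnc00005582 on chromosome 1 (2.54, 0.0674 and 0 FPKM), lnc00072890 on chromosome 5 (1.30, 7.37e-05 and 0.662 FPKM), lnc00030873 on chromosome 19 (4.25, 1.78 and 0.194 FPKM) and lnc00017606 on chromosome 10 (2.43, 0.49 and 0.077 FPKM). The last shared its locus with uc_338, an Ensembl row listed at 0, and the others except that of GSG1L lay at Ensembl transcripts without a symbol. GSG1L itself stood at 0.0347, 0.0521 and 0.858 FPKM.

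LncRNAs at genes of muscle, metabolism, growth and matrix were looked at by gene group. Over 7 such groups, 62 lncRNAs lay at or beside 35 genes, and 36 of them passed the minimum from E11 to E16, of which 19 were at least 2-fold higher and 6 lower. From E11 to D1 it was 17 and 7 of 33, and from E16 to D1 13 and 9 of 30. Over all lncRNAs near genes the calls in both directions took in 51%, 62.8% and 43%, and over all transcripts 27.9%, 43.2% and 23%. These shares are also the background for the counts of each single group below, in which few lncRNAs passed the minimum. LncRNA and gene had the same direction in 26 of 36 pairs, in 23 of 33 and in 18 of 29. Over all lncRNAs near genes this share was 58.6%, 58.2% and 58.7%. The lncRNAs around IL15, all paired with the same gene, are among the same-direction pairs in each comparison. The groups were chosen with earlier results of these data known.

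Among myogenic regulators, 7 of 38 measured genes had 9 lncRNAs. Of the 5 lncRNAs past the minimum from E11 to E16 3 were higher and none lower. From E16 to D1 none of 4 was higher and 3 were lower. Over all lncRNAs near genes, 32.7% were higher and 18.3% lower over the first step, and 18.8% and 24.2% over the second. All transcripts had 15.1% and 12.8%, and then 11.6% and 11.4%. Of the myogenic regulator genes 14 of 37 were higher and 1 lower over the first step. Over the second, 6 of 36 were higher and 2 lower. At MYF6, a bHLH factor of differentiating muscle, lnc00009821 had 0.413, 1.32 and 0.695 FPKM. At VGLL2, a cofactor of TEAD proteins, lnc00053430 had 0.76, 2.31 and 0.444 FPKM. At 321 bp from TEAD1, lnc00068021 (1.53, 1.75 and 0.522 FPKM) had its highest value at E16 too. At MKL2, a cofactor of serum response factor, so did lnc00025481 with 1.45, 3.27 and 1.98 FPKM. These 4 lncRNAs were highest at E16, whereas MYF6 (4.71, 18.4 and 27.9 FPKM) and MKL2 (19.2, 35.6 and 52.3 FPKM) were highest at D1. At TEAD4, lnc00003318 was also highest at E16, though at only 0.053 FPKM, and so was TEAD4 itself (25.5, 56.9 and 44.7 FPKM). Of all lncRNAs near genes with 1 FPKM or more at their highest stage, 40.4% were highest at E16.

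In the sarcomere group 2 of 51 measured genes had 4 lncRNAs. These genes were MYBPC3, encoding the cardiac form of myosin-binding protein C, and PDLIM3. Of the lncRNAs, 3 lay at MYBPC3 and peaked at E16: lnc00072178 (0.204, 2.14 and 0.181 FPKM) and lnc00072182 (0.471, 1.18 and 0.191 FPKM) overlapped it, and lnc00072176 (0.538, 1.38 and 0.202 FPKM) lay 75 bp away. MYBPC3 had 45.1, 46.3 and 45.0 FPKM. All 3 were at least 2-fold higher from E11 to E16, and the lncRNA at PDLIM3 was the 1 that was lower. From E11 to D1 that one alone passed the minimum and was lower, and from E16 to D1 2 passed and both were lower.

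Genes of the membrane and junction of the fiber had 3 lncRNAs at 2 of 43 genes. At ANO6, a lipid scramblase, lnc00009518 and lnc00009521 were listed at 0 at E11 and reached 1.45 and 1.37 FPKM at D1, with the gene at 11.0, 33.9 and 24.0 FPKM. Both were at least 2-fold higher from E11 to D1, and lnc00009518 also from E16 to D1.

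Growth factors and patterning genes had the most, 26 lncRNAs at 11 of 90 measured genes. Over the first step 7 of 13 lncRNAs past the minimum were higher and 2 lower. Of all 81 genes of the group past it, with or without an lncRNA, 8 were higher and 42 lower. From E11 to D1 it was 10 and 3 of 15 lncRNAs against 7 and 42 of 81 genes, and from E16 to D1 7 and 0 of 10 against 6 and 14 of 67. The 5 lncRNAs around IL15 are among the higher ones in each comparison. With their own nearest gene, the lncRNAs of this group had the same direction in 9 of 13 pairs, 11 of 15 and 8 of 9. In each comparison 5 of these same-direction pairs set an lncRNA around IL15 against that same gene. Over all lncRNAs near genes the share was 58.6%, 58.2% and 58.7%. At DKK2, an inhibitor of Wnt signalling, lnc00065323 (2.64, 0.404 and 0.656 FPKM) and lnc00065324 (1.07, 0.0794 and 0.151 FPKM) were lower with the gene (22.2, 3.01 and 2.67 FPKM). At 2863 bp from GDF8, the gene of myostatin, which limits muscle growth, lnc00080098 had 1.35, 0.695 and 0.382 FPKM, while GDF8 had 21.2, 129 and 42.8 FPKM. The locus of IGFBP5, which binds insulin-like growth factors, held 8 lncRNAs with a sum of 3.48, 5.03 and 5.54 FPKM. Among them, lnc00079521 (1.6, 1.14 and 0 FPKM) and lnc00081383 (0.391, 0.869 and 1.85 FPKM) ran in opposite directions. At HHIP, which binds hedgehog ligands, lnc00064958 had 2.13, 2.08 and 1.17 FPKM and the gene 13.5, 6.06 and 3.78 FPKM. At 4270 bp from TBX15 lnc00011326 reached 1.34 FPKM at D1, and at 111 bp from HOXC11 lnc00092067 reached 1.45 FPKM at E16, both beside transcription factors of limb patterning.

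In the extracellular matrix group, 4 of 51 genes had 5 lncRNAs, of which 1 of 4 was higher and 2 lower from E11 to E16. From E11 to D1 2 of 3 were lower and none higher, and from E16 to D1 1 of 2 was lower. The higher one was lnc00004011 at COL8A1 (1.13, 4.83 and 0.753 FPKM). At THBS1, a matrix glycoprotein, lnc00069330 had 1.70, 0.169 and 0.345 FPKM and the gene 15.6, 6.92 and 113 FPKM, and at 4171 bp from COL3A1, a chain of fibrillar collagen, lnc00078183 had 2.94, 1.06 and 0.579 FPKM against 633, 2225 and 1730 FPKM. At 991 bp from LAMC1, a laminin chain, lnc00084348 stayed between 2.41 and 3.89 FPKM. In the cell cycle group, 3 of 46 genes had 4 lncRNAs, of which 1 of 3 was higher and 1 lower from E11 to E16. The counts were 0 of 1 from E11 to D1 and 1 lower of 1 from E16 to D1. The higher one was lnc00003128, 167 bp from the cell cycle inhibitor CDKN1B (1.37, 3.85 and 1.31 FPKM), and the lower one lnc00055971, 4836 bp from CENPF of the kinetochore (1.06, 0.406 and 0.147 FPKM). At 1064 bp from the repressor E2F7, lnc00001409 had 0.641, 1.13 and 0.0564 FPKM. Genes of that group were lower from E11 to D1 in 38 of 46.

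LncRNAs and their genes had the same direction somewhat more often than not. Counting pairs in which both partners passed the minimum, it was 258 of 440 (58.6%) from E11 to E16, 202 of 347 (58.2%) from E11 to D1 and 175 of 298 (58.7%) from E16 to D1. Spearman's rho of the log2 ratios across these pairs was 0.26, 0.23 and 0.33, and Pearson's r was 0.29, 0.32 and 0.46. Beside it stand neighbouring Ensembl genes at distances of up to 5000 bp, which had the same direction in 54.1% of 3677 pairs, 54.0% of 3569 and 53.6% of 3255. Pairs share their libraries, several share a gene or a locus, and the comparisons share stages, so these values are a description.

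**Figure D2:**
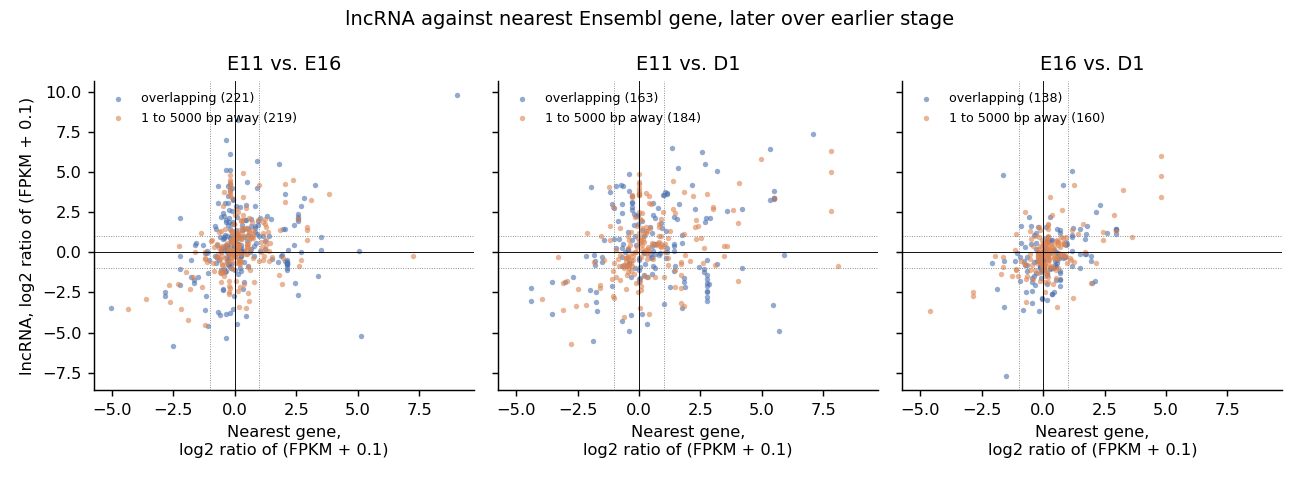
Log2 ratio of the later over the earlier stage, after 0.1 was added to each FPKM, of each lncRNA (vertical axis) against its nearest Ensembl gene (horizontal axis) in the 3 comparisons, for overlapping pairs and for pairs 1 to 5000 bp apart; dotted lines mark 2-fold. Most points lie near the centre with a weak slope (Spearman's rho of 0.26, 0.23 and 0.33), and the points at the top right of E16 vs. D1 are lncRNAs beside SLC25A4.

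Where both partners differed at least 2-fold, the direction was mostly shared. It was the same in 59 of 68 pairs (86.8%) from E11 to E16, in 75 of 112 (67.0%) from E11 to D1 and in 35 of 41 (85.4%) from E16 to D1. Neighbouring Ensembl genes had 71.6% of 236, 61.7% of 554 and 70.8% of 161. For lncRNAs 5 to 50 kb from their gene it was 87.9% of 58, 88.4% of 69 and 82.4% of 17. Beyond 50 kb it was 76.7% of 30, 66.7% of 33 and 60% of 5. A mostly shared direction was thus not particular to lncRNAs near genes. Their 37 opposite pairs from E11 to D1 include the 8 of the B-G locus. The gene beside a called lncRNA was itself called more often in some comparisons. These shares count pairs, so a gene with several lncRNAs, such as IL15 or SLC25A4, enters once for each of them. From E16 to D1, the gene was called in 52% of the 50 pairs with a higher lncRNA. It was called in 22.1% of the 68 pairs with a lower lncRNA and in 13.9% of the 180 others. From E11 to D1 these shares were 45.3% of 128, 63.5% of 85 and 33.6% of 134. For the step from E11 to E16 they were 24% of 146, 42.9% of 77 and 24.9% of 217. Over that step the gene was thus called more often with lower lncRNAs, and not with higher ones, than with lncRNAs past neither fold.

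The share of pairs with the same direction differed with distance, and not in one order. Overlapping pairs had 56.1% of 221, 50.3% of 163 and 59.4% of 138 in the 3 comparisons in the order above, and pairs 1 to 5000 bp apart 61.2% of 219, 65.2% of 184 and 58.1% of 160. The highest share stood at 1 to 1000 bp from E11 to D1, where 56 of 71 pairs (78.9%) had the same direction with a rho of 0.61. With 1 lncRNA per locus, an alternative added with the data known, it was 49 of 62 (79.0%). At these distances the share was 64.8% of 91 from E11 to E16 and 59.1% of 66 from E16 to D1. LncRNAs 5 to 50 kb away had shares of 68.4% of 228, 72.6% of 164 and 61.4% of 132, and beyond 50 kb 51.8% of 112, 54.4% of 68 and 45.8% of 48. In each comparison the share was lower for overlapping pairs than at 5 to 50 kb.

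**Figure D3:**
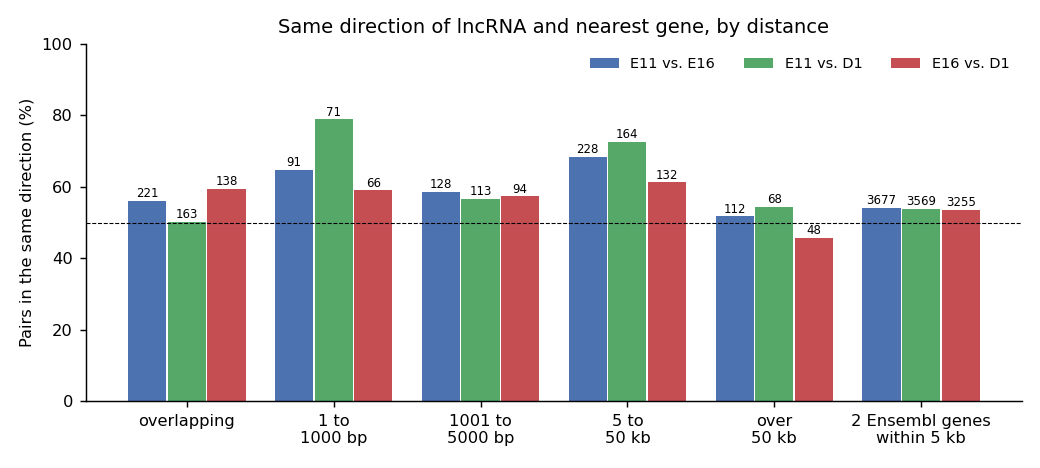
Share of pairs (in percent) in which lncRNA and nearest gene had the same direction, by distance class and comparison, with neighbouring Ensembl genes at the right; numbers above the bars count pairs and the dashed line marks 50%. The bar at 1 to 1000 bp for E11 vs. D1 (78.9% of 71) is the highest, and the bars for overlapping pairs are lower than those at 5 to 50 kb.

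Levels of markers of several cell types differed over the same stages. Summed over their genes, 46 sarcomere genes stood at 5372, 60812 and 86204 FPKM at E11, E16 and D1, so the defining genes of muscle were present at every stage. Markers of fat cells (13 genes) went from 86.8 to 1611 and 2144 FPKM, of endothelium (13 genes) from 185 to 439 and 641, and of red cells (9 genes) from 1163 to 2389 and 1121. The red cell genes were mixed, with 4 at least 2-fold higher and 2 lower from E11 to E16. From E11 to D1 it was 3 and 2. The sum of nerve and Schwann cell markers (13 genes) went from 59.1 to 575 and 502 FPKM, though from E11 to E16 5 of 11 were at least 2-fold higher and 5 lower, with a median log2 ratio of -0.81, and from E11 to D1 4 were higher and 6 lower. Markers of epidermis (15 genes) went from 177 to 17.4 and 17.5 FPKM, of cartilage (14 genes) from 330 to 200.5 and 195, and of kidney (13 genes, of which 1, 4 and 4 were listed at 0) from 226 to 5.66 and 5.88, while leukocyte markers (13 genes) had 58.5, 75.6 and 49.9. Of the markers themselves, EMCN of endothelium had an lncRNA 1766 bp away, lnc00066489, with 0.0558, 0.637 and 1.91 FPKM, beside 10.2, 20.9 and 47.0 FPKM of the gene. At CD8A of T cells, lnc00063279 was listed at 0 at E11 and D1 and at 4.21 FPKM at E16, with the gene at 0.238 FPKM or less throughout. At 969 bp from GRHL3 of epidermis, lnc00046806 stayed between 1.18 and 1.48 FPKM while the gene went from 5.74 to 0.477 FPKM. The part of these cell types in the levels of the lncRNAs was not tested.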

How the data were processed

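RNA of leg muscle was sequenced from 2 libraries at each of E11, E16 and D1. As the labels and methods state, the authors trimmed reads with Trim Galore and aligned them to galGal4 with Bowtie and TopHat. The methods take the genome sequence from Ensembl release 73. Transcripts were assembled with Cufflinks 2.0.2. Annotation came from Ensembl, RefGene and UCSC for lncRNAs and from RefSeq and Ensembl for genes. The authors kept lncRNAs of at least 200 nt that lacked coding potential, and compared stages with Cuffdiff. The deposited tables, 1 per pair of stages, give an FPKM from the authors for each transcript at each stage, with both libraries merged. The depth of a value is not given in the tables. Their log2 fold changes, test statistics, p-values and q-values are the authors' own comparisons and were not used. Transcripts marked as failed were left out of a table.

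Distances were taken between loci, printed with the first base counted as 1. Between tables, the FPKM of a stage differed by a constant: those of E11, E16 and D1 were a median of 0.83, 0.705 and 0.853 times as high in the later-named table, and 98.6%, 97.9% and 98.0% of the lncRNAs near genes lay within 1% of it. Levels at D1 were those of E11 vs. D1 divided by the E11 factor of 0.83. Levels at E11 and E16 were left as in E11 vs. E16, and the factors of E16 and D1 were not applied. Ratios were log2(FPKM + 0.1), with an FPKM minimum of 1 at 1 stage. Alternatives were other minimums, pseudocounts, folds, distances, centring and partners.

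LncRNAs were named by rule: those the paper names; per comparison the 5 with the highest mean, the 5 per direction with the largest ratio above 0 at both stages, and the 5 pairs each with the largest shared and opposite ratios; and those at genes of the gene groups. A few lncRNAs that the rule picks are not reported here. Members, lists and rule were chosen with earlier results of these data known. The calling was tested on simulated data. Computation used Python 3.11.15 (pandas 2.3.3, numpy 2.4.6, matplotlib 3.10.9, scipy 1.17.1).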

Additional observations from a re-analysis of the deposited data

How the results depend on the processing

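Counts of called lncRNAs moved with the settings that define a call, and the shares of pairs mostly did not; of 93 alternative values, 63 stayed close to the main one, 29 moved and 1 turned its direction. Given for the 3 comparisons in the order of the report, the counts of 257, 258 and 153 became 107, 105 and 66 at a minimum of 2 FPKM, 433, 497 and 356 with no minimum, 140, 158 and 71 with a pseudocount of 1, 135, 163 and 65 at 4-fold, and 138, 136 and 89 with overlapping lncRNAs only. At a minimum of 0.5 FPKM the E11 vs. D1 count became 417 and the E16 vs. D1 count 270. With 1 lncRNA per locus, added with the data known, they were 203, 198 and 122. The numbers of lncRNAs from which these counts were taken moved too. They were 504, 411 and 356 in the main setting, and a pseudocount of 1 or a fold of 4 left them unchanged. At a minimum of 2 FPKM they were 204, 158 and 137, and with no minimum 908, 911 and 900. With overlapping lncRNAs only they were 256, 195 and 172, and with 1 lncRNA per locus 407, 331 and 293. The median log2 ratio for E11 vs. E16, 0.37, was 0.18 at a minimum of 0.5 FPKM, 0.56 at 2 FPKM, 0.23 with a pseudocount of 1 and 0.25 with the lncRNAs of a locus summed, likewise added later. That for E11 vs. D1, 0.25, was -0.15 at a minimum of 0.5 FPKM, 0.54 at 2 FPKM and 0.091 for overlapping lncRNAs, and that for E16 vs. D1, -0.25, was -0.13 at 2 FPKM. The cause of these shifts was not tested. Of the called lncRNAs of E11 vs. D1, 58.9% were higher, and 47.5% at a minimum of 0.5 FPKM. The share of pairs in the same direction moved to 86.8%, 67.0% and 85.4% where both partners differed at least 2-fold, and for E11 vs. D1 to 50.3% for overlapping pairs and 65.2% at 1 to 5000 bp. Centring on the median ratio of the Ensembl transcripts, which was at most 0.06 from 0, moved none of these results past its limit.

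No paired analysis was possible because the tables hold 1 value per stage with both libraries merged, and for the same reason no library was left out and no spread, test or counting interval is given. A listed 0 gives no upper limit on a level. Most of these lncRNAs are below 1 FPKM, where estimates are least certain, and the split of reads among transcripts of 1 locus cannot be checked.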

Other observations

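Further abundant lncRNAs near genes, counted but not named above, were picked with their values known. At ADA, adenosine deaminase, lnc00043794 had 15.7, 9.63 and 8.76 FPKM at E11, E16 and D1 and the gene 5.04, 4.24 and 14.0 FPKM. At the potassium channel gene KCNK3, lnc00054727 had 1.59, 20.5 and 13.6 FPKM and stood above the gene (0.377, 1.87 and 1.40 FPKM) at all 3 stages. At 4393 bp from the sulfotransferase gene CHST15, lnc00077991 had 1.04, 2.67 and 14.0 FPKM, while the gene had 21.7, 13.9 and 17.8 FPKM.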
